A study of Homo sapiens with 14 samples.

Results

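This comparison set K562 cells carrying the sgRNA group sgHS1-5 against K562 cells carrying the single-enhancer sgRNA sgHS2. Its members were the 3 sgHS1-5 and the 3 sgHS2 libraries, taken by their labels, which made 6 of the 14 RNA-seq libraries of the study. K562 is a human chronic myeloid leukemia cell line with erythroid and megakaryocytic features. Both lines stably carried FB-dCas9, a Cas9 without cutting activity that bears Flag and a biotin-acceptor peptide, as well as BirA, the ligase that adds biotin to it. The groups differed in their sgRNAs, placed by the labels at regulatory elements of the β-globin cluster. The other 8 libraries, from cells with sgHBG or the non-targeting sgGal4 and from cells without dCas9 (WT), helped to estimate the spread between replicates. Nothing in the labels states that the replicates came from separate cultures, and the p-values then measure library-to-library spread that may be technical. Since sgHS1-5 and sgHS2 cells are separate stable populations, what their sgRNAs did and how the populations otherwise differ cannot be told apart.

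The human β-globin genes are switched on in the order embryonic, fetal and adult, and their transcription in red cell precursors depends on the locus control region, a row of DNase hypersensitive sites upstream of the embryonic gene whose sites are numbered from HS1 onwards. HS2 is the classical enhancer among them. K562 cells express embryonic and fetal rather than adult globin. In the same cells, ATF4, a transcription factor made when the kinase pathways of the integrated stress response slow translation, switches on genes for amino acid synthesis, amino acid uptake and tRNA charging.

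The sgHS1-5 libraries were shallower, with 5694448, 6773888 and 6722849 counted reads, against 11285274, 9765587 and 10622959 in the sgHS2 libraries. Levels are given as CPM, counted reads scaled for depth and composition (TMM), in the order of the replicates 1, 2 and 3. The erythroid markers GATA1, TAL1 and KLF1, which fit the K562 label, were present in every library of both groups. Libraries sgHS1-5 2 and 3 also held transcripts of other blood cells, so each gene was tested in a fit with all 3 sgHS1-5 libraries and again in a fit that kept sgHS1-5 1 alone. In that second fit, the lone library was assumed to vary like the other groups. The 8 erythroid genes checked, globins among them, were lower in sgHS1-5 2, at 61.4% of sgHS1-5 1 for GATA1 and 62.9% for TAL1, while GATA1 in sgHS1-5 3 stood at 88.3%. Replicates 1 and 3 were the closest pair in both groups. The χ² per degree of freedom, near 1 where counting error alone separates libraries, was 3.01 between sgHS1-5 1 and 3, 17.1 between 1 and 2 and 11.2 between 2 and 3. For sgHS2 it was 1.71 between 1 and 3, 16.3 between 1 and 2 and 15.6 between 2 and 3. Library sgHS2 2 was low in long transcripts, with a median log2 deviation from its group of −0.192 for the longest 20%.

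Between the 2 groups, 5608 of 14406 genes tested were called at an adjusted p under 0.05 (38.9%; edgeR quasi-likelihood test with Benjamini-Hochberg adjustment, which all adjusted p values below refer to). Of these, 2936 were higher in sgHS1-5 (20.4%) and 2672 lower (18.5%). The 2936 include 297 genes that passed the filter on low counts only through sgHS1-5 2 and 3 and so had to be higher. With sgHS1-5 1 alone, 2675 of 14368 genes were called (18.6%), 1316 of them higher (9.16%) and 1359 lower (9.46%). Of the 14085 genes tested in both fits, 1229 were called higher in both (8.73%) and 1212 lower in both (8.6%). Another 2 genes were called in both fits with opposite signs. The groups did not overlap for 7726 genes (53.6%), of which 3908 were higher (27.1%) and 3818 lower (26.5%). Of the genes called higher, 668 had sgHS1-5 libraries that differed by more than 3-fold from each other, or 22.8%, against 103 of the genes called lower, or 3.85%. The median log2 difference over all genes tested was 0.0345.

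**Figure D1:**
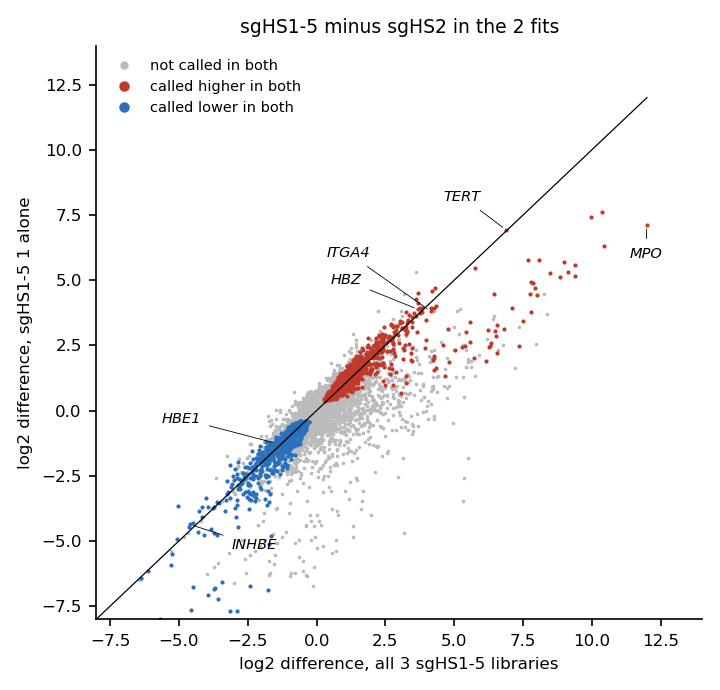
Log2 difference (sgHS1-5 minus sgHS2) of each of 14085 genes with all 3 sgHS1-5 libraries (x axis) and with sgHS1-5 1 alone (y axis); colours mark genes called in both fits, grey the rest, and the line marks equal values. TERT, HBZ, ITGA4, INHBE and HBE1 lie near the line, and MPO lies well below it, at 11.99 with all libraries and 7.13 with sgHS1-5 1 alone.

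HBE1, the embryonic β-like globin, was the gene of the β-globin cluster with the largest difference. It had 289, 188 and 277 CPM in sgHS1-5, against 634, 826 and 618 CPM in sgHS2. Every sgHS1-5 library lay below every sgHS2 library. HBE1 was 2.76-fold lower in sgHS1-5 (251 ± 55.5 against 693 ± 116 CPM, SD, n = 3 each; log2 difference −1.46 ± 0.28, SE; adjusted p = 0.00146). With sgHS1-5 1 alone the log2 difference was −1.26 and was not called (adjusted p = 0.0629). HBE1 averaged 273 CPM in sgHBG, 341 CPM in sgGal4 and 344 CPM in WT, so the sgHS2 mean was the highest of the 5 groups. In these bulk libraries, fewer cells that express a gene and less RNA per cell cannot be told apart.

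HBD, the minor adult δ-globin gene, was also lower. It had 3.56, 2.59 and 2.84 CPM in sgHS1-5, against 5.6, 6.33 and 6.17 CPM in sgHS2. The groups did not overlap (log2 difference −1.01 ± 0.23, SE; adjusted p = 0.00433), but the call was lost with sgHS1-5 1 alone (−0.76, adjusted p = 0.143). The fetal globin genes did not pass the test. HBG2 had 280, 174 and 230 CPM in sgHS1-5, against 246, 324 and 243 CPM in sgHS2, a log2 difference of −0.25 ± 0.32 (SE, adjusted p = 0.568). HBG1 had 154, 102 and 146 CPM in sgHS1-5, against 123, 177 and 126 CPM in sgHS2, a log2 difference of −0.08 ± 0.32 (SE, adjusted p = 0.864). The groups overlapped for both genes, whose near-identical sequences make the split of reads between them uncertain, and with sgHS1-5 1 alone the log2 differences were 0.05 for HBG2 and 0.12 for HBG1. HBBP1, a globin pseudogene, was at 3.40, 2.87 and 4.33 CPM in sgHS1-5 and at 2.27, 4.29 and 3.50 CPM in sgHS2, and was not called (adjusted p = 0.82). HBB, the adult β-globin gene, had 0 reads in sgHS1-5 and 1 read in sgHS2. Over all genes tested, 18.5% were lower and 20.4% higher. For the β-globin cluster as a whole, 2 of 5 tested genes were lower and none higher, and none was called with sgHS1-5 1 alone.

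On the authors' per-length scale (RPKM), HBG2 was the most abundant globin in sgHS1-5, at 557 ± 131 RPKM, followed by HBZ at 343 ± 63.3, HBE1 at 339 ± 71.1 and HBG1 at 326 ± 60.4 RPKM (SD, n = 3). The last 3 lay within their spread of each other. In sgHS2 the order was HBE1 at 884 ± 148, HBG2 at 631 ± 118 and HBG1 at 333 ± 61.5 RPKM, and HBZ came far below at 30.8 ± 8.78 RPKM (SD, n = 3).

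HBZ, the embryonic ζ-globin gene, belongs to the α-globin cluster on another chromosome, which the sgRNAs of neither group are labelled to target. It had 147, 99.3 and 143 CPM in sgHS1-5, against 9.09, 13.4 and 7.74 CPM in sgHS2. All 3 sgHS1-5 libraries stood several-fold above all sgHS2 libraries, a 12.9-fold difference (log2 3.69 ± 0.22, SE; adjusted p = 2.97e-07), and the log2 difference was 3.88 with sgHS1-5 1 alone (adjusted p = 1.26e-05). HBZ averaged 8.83 CPM in sgHBG, 6.63 CPM in sgGal4 and 13.2 CPM in WT, so the sgHS1-5 mean was the highest of the 5 groups.

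The adult α-globin genes were at lower levels than HBZ and higher in the same direction. On the RPKM scale, HBA1 averaged 50.6 and HBA2 12.3 in sgHS1-5, where HBZ was at 343. In sgHS2 they averaged 8.67 and 1.31 RPKM. In CPM the gap to HBZ was wider. HBA1 had 9.39, 3.14 and 5.68 CPM in sgHS1-5, against 0.787, 1.29 and 0.737 CPM in sgHS2 (log2 2.69 ± 0.51, SE; adjusted p = 0.00132). HBA2 had 3.89, 1.64 and 1.22 CPM in sgHS1-5, or 45 reads in all, against 0.175, 0.215 and 0.0921 CPM in sgHS2, or 5 reads (log2 3.70 ± 0.71, SE; adjusted p = 0.00147). Neither gene's groups overlapped, both were called with sgHS1-5 1 alone, and the split of reads between these near-identical copies is uncertain. Of 11 tested genes of the cluster and its neighbours, 5 were higher and none lower, with a median log2 difference of 0.52, and 3 were called higher with sgHS1-5 1 alone. The other 2, SNRNP25, a minor spliceosome protein (log2 0.89, adjusted p = 0.0313), and LUC7L, a splicing factor (log2 0.81, adjusted p = 0.0424), were not called with sgHS1-5 1 alone (adjusted p = 0.197 and 0.19). LUC7L also lost its call without any 1 of the 6 libraries, and SNRNP25 without any but sgHS2 2. The 5 higher of 11 genes were 45.5%, against 20.4% of all genes. In the count table, HBM had 0 reads in both groups, while the authors' RPKM table lists it at 0.254 in sgHS1-5 2 and 0.247 in sgHS1-5 3. HBQ1, the θ-globin gene, and NPRL3, whose introns hold the α-globin enhancers, were not called (adjusted p = 0.341 and 0.583).

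**Figure D2:**
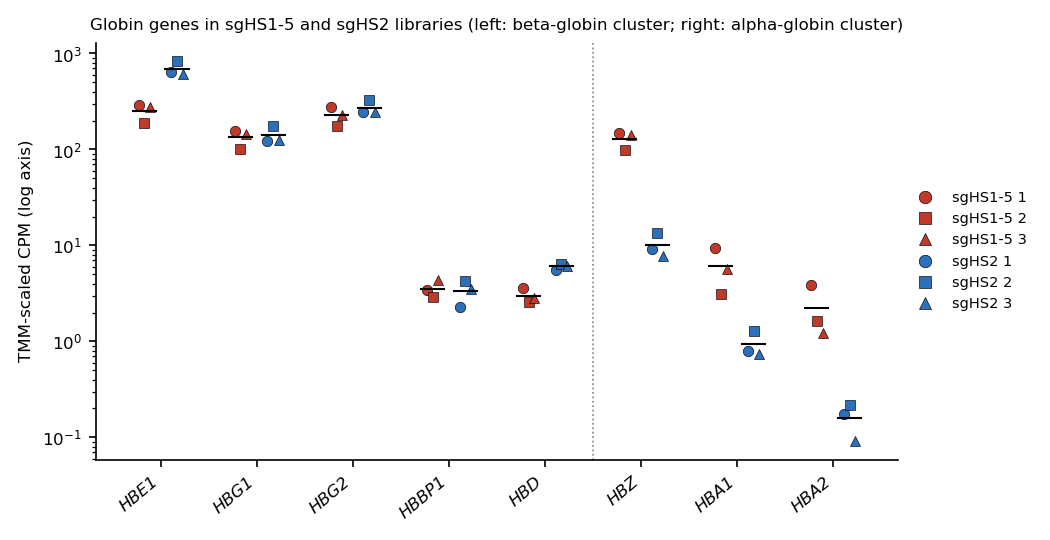
TMM-scaled CPM (log axis) of globin genes in each sgHS1-5 library (red) and sgHS2 library (blue); marker shapes give the replicate number and black bars the group means. HBE1 and HBD lie lower and HBZ, HBA1 and HBA2 higher in all 3 sgHS1-5 libraries, while HBG1, HBG2 and HBBP1 overlap.

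Genes around the β-globin cluster on chromosome 11 went both ways. Of 32 tested, 6 were higher (18.8%, against 20.4% of all genes) and 9 lower (28.1%, against 18.5%), and the median log2 difference was −0.24. The 6 higher became 2 without sgHS1-5 3 and 3 with only the sgHS1-5 and sgHS2 libraries, and the 9 lower became 15 without sgGal4 1. SMPD1, the lysosomal acid sphingomyelinase, was at 11.7, 12.6 and 14.5 CPM in sgHS1-5, against 37.9, 48.2 and 39.4 CPM in sgHS2 (log2 −1.69, adjusted p = 1.95e-05). TPP1, a lysosomal peptidase, was lower by a log2 difference of −1.16 (adjusted p = 7.65e-05), and TRIM6, a ubiquitin ligase, by −1.23 (adjusted p = 3.92e-05). RRM1, a subunit of ribonucleotide reductase, was higher (log2 0.78, adjusted p = 9.9e-05). These 4 were called in the same direction with sgHS1-5 1 alone, as 2 higher and 5 lower genes of the list were.

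Genes of the ATF4 and amino acid stress response were lower in sgHS1-5 almost throughout. Of 34 members, all tested, 32 were lower and none higher, where 18.5% of all genes were lower, and 31 were lower in both fits, against 8.6% of all genes. The median log2 difference was −1.36, and −1.68 with sgHS1-5 1 alone. In every one of those 32, no sgHS1-5 library reached the lowest sgHS2 library, against 26.5% of all genes.

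The promoters below show the letters of the C/EBP-ATF response element, the site that ATF4 binds together with a C/EBP partner, in 3 of the lower genes. They are RefSeq windows of 250 bases before to 50 bases after the start of each gene (build GRCh38.p14), written 5′ to 3′ on the gene's strand, with the match in capitals. ASNS, which makes asparagine, lies at chr7:97872359-97872658 on the minus strand, CHAC1, which degrades glutathione, at chr15:40953221-40953520 on the plus strand, and MARS, the methionyl-tRNA synthetase (MARS1 in RefSeq), at chr12:57487818-57488117 on the plus strand.
ASNS: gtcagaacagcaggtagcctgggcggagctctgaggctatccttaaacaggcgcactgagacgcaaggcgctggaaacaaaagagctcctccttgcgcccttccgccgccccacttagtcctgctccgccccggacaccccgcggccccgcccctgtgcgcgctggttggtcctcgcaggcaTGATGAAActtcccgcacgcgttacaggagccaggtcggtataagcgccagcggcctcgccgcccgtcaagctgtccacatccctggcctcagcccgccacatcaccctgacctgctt
CHAC1: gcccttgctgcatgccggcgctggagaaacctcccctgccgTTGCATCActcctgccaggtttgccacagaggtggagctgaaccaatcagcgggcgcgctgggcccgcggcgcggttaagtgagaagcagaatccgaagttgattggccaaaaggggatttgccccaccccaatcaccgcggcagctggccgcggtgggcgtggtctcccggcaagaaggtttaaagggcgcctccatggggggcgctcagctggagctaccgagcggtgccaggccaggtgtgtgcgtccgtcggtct
MARS: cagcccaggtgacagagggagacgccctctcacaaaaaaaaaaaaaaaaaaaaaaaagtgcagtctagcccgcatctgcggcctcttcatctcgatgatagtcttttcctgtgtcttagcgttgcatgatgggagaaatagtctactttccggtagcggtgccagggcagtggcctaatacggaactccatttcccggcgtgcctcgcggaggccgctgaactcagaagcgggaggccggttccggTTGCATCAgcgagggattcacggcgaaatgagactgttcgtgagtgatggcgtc
The letters searched were TGATGNAA and, on the other strand, TTNCATCA. Of 34 list members, 28 matched a window by symbol or an unambiguous synonym, and 9 of these held the letters (32.1%), against 4.46% of 27305 genes with a window. Of those 9 genes, 8 were lower in sgHS1-5 and SLC7A1 was not called, where 32 of all 34 members were lower. Known genes of this response make up the list, so the share with the letters describes the list and not the comparison. A match is a run of letters in this window, and binding was not measured here.

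The transcription factors of the response were lower. ATF4 itself was at 227, 377 and 236 CPM in sgHS1-5, against 660, 820 and 664 CPM in sgHS2 (log2 −1.35 ± 0.26, SE; adjusted p = 0.00152). ATF5, a related factor, had 36.0, 91.4 and 50.4 CPM in sgHS1-5, against 792, 942 and 794 CPM in sgHS2, the largest difference of the list at log2 −3.83 ± 0.29 (SE, adjusted p = 1.59e-06). Both genes were highest in sgHS1-5 2 within their group, and neither group overlapped. DDIT3 (CHOP), a pro-apoptotic factor, was at 63.6, 58.7 and 65.6 CPM in sgHS1-5, against 187, 244 and 190 CPM in sgHS2 (log2 −1.72, adjusted p = 0.000449). ATF3 and CEBPB, partners of ATF4, had log2 differences of −1.24 and −1.05.

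Amino acid synthesis followed the same direction. ASNS had 72.6, 88.9 and 68.4 CPM in sgHS1-5, against 498, 541 and 516 CPM in sgHS2. The groups were far apart, a 6.76-fold difference (log2 −2.76 ± 0.16, SE; adjusted p = 2.97e-07; −2.84 with sgHS1-5 1 alone). ASNS averaged 494 CPM in sgHBG, 933 CPM in sgGal4 and 1250 CPM in WT, so the sgHS1-5 mean was the lowest of the 5 groups. In the serine pathway, PHGDH, its first enzyme, was at 43.2, 113 and 59.1 CPM in sgHS1-5, against 369, 455 and 350 CPM in sgHS2 (log2 −2.44, adjusted p = 4.97e-05). PSAT1, the next enzyme, was at 29.2, 114 and 45.0 CPM in sgHS1-5, against 159, 161 and 157 CPM in sgHS2 (log2 −1.34, adjusted p = 0.00771). Both enzymes were highest in sgHS1-5 2, the library richest in transcripts of other blood cells, and PSAT1 differed more with sgHS1-5 1 alone (log2 −2.45). PSPH, SHMT2 and MTHFD2, which finish serine synthesis and carry its carbon into folates, had log2 differences of −0.71, −0.91 and −0.94.

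The tRNA synthetases in the list were all lower. WARS, for tryptophan, was at 147, 188 and 144 CPM in sgHS1-5, against 785, 833 and 767 CPM in sgHS2 (log2 −2.32 ± 0.12, SE; adjusted p = 1.06e-07). MARS was at 182, 208 and 189 CPM in sgHS1-5, against 666, 697 and 636 CPM in sgHS2 (log2 −1.79 ± 0.09, SE; adjusted p = 9.2e-08). No library of one group came near the other. CARS, GARS, AARS and EPRS had log2 differences of −1.83, −1.73, −1.37 and −0.91. Among amino acid transporters, SLC6A9, for glycine, was at 3.56, 2.59 and 4.06 CPM in sgHS1-5, against 32.5, 33.9 and 27.9 CPM in sgHS2 (log2 −3.20, adjusted p = 3.47e-07), and SLC7A11, the cystine importer, had a log2 difference of −2.07 (adjusted p = 2.71e-05). The arginine transporter SLC7A1 did not pass the test in either fit (log2 −0.29, adjusted p = 0.434; −0.76, adjusted p = 0.174 with sgHS1-5 1 alone).

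Feedback and stress effectors were lower too. TRIB3, a pseudokinase that restrains ATF4, was at 48.3, 73.9 and 58.3 CPM in sgHS1-5, against 287, 335 and 273 CPM in sgHS2 (log2 −2.31, adjusted p = 6.26e-07). CHAC1 had 1.46, 3.41 and 1.35 CPM in sgHS1-5, against 21.9, 20.5 and 20.6 CPM in sgHS2 (log2 −3.32, adjusted p = 1.83e-06), and NUPR1, a stress-induced chromatin protein, 17.2, 15.2 and 19.2 CPM in sgHS1-5, against 202, 268 and 209 CPM in sgHS2 (log2 −3.72, adjusted p = 2.95e-06). SESN2 and DDIT4, inhibitors of mTORC1, had log2 differences of −1.97 and −1.60. VLDLR, a lipoprotein receptor, was the other member not called: it had 0.81, 19.9 and 4.6 CPM in sgHS1-5, against 6.65, 4.93 and 7.0 CPM in sgHS2. Its high value was in sgHS1-5 2, and with sgHS1-5 1 alone it was lower (log2 −2.92, adjusted p = 0.00559). INHBE, which encodes the activin subunit βE and lies outside the list, had 5.83, 3.82 and 5.14 CPM in sgHS1-5, against 120, 124 and 117 CPM in sgHS2, a 24.5-fold difference (log2 −4.61 ± 0.14, SE; adjusted p = 1.7e-09). It averaged 114 CPM in sgHBG, 140 CPM in sgGal4 and 153 CPM in WT.

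**Figure D3:**
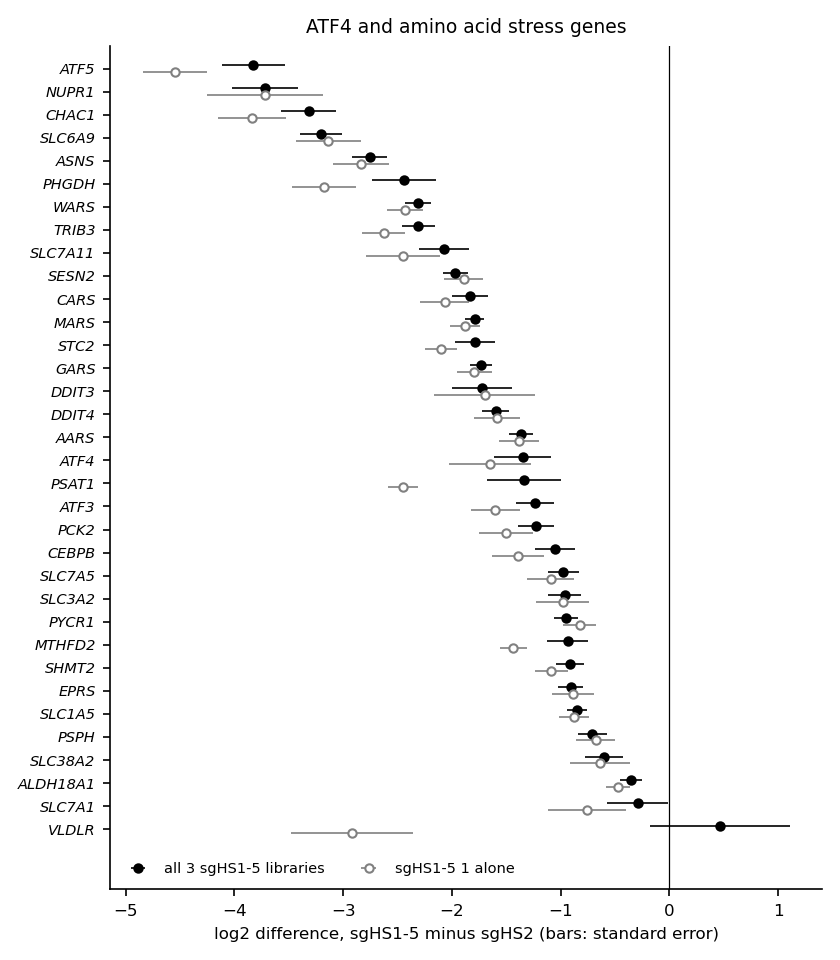
Log2 difference (sgHS1-5 minus sgHS2, x axis) of the 34 genes of the ATF4 and amino acid stress list; filled points use all 3 sgHS1-5 libraries, open points sgHS1-5 1 alone, and bars are standard errors. All filled points but VLDLR lie below 0, from −3.83 for ATF5 to −0.29 for SLC7A1.

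Chaperones of the endoplasmic reticulum fold secreted proteins and are induced by the unfolded protein response. Of 22 members, 11 were lower and none higher (median log2 −0.57, and −0.55 with sgHS1-5 1 alone). The 11 lower members were 50%, against 18.5% of all genes. HSPA5 (BiP), the main chaperone of the compartment, was at 551, 493 and 519 CPM in sgHS1-5, against 1100, 1250 and 1100 CPM in sgHS2 (log2 −1.14, adjusted p = 7.16e-05). HERPUD1, which helps to degrade misfolded proteins, had 26.6, 46.2 and 25.8 CPM in sgHS1-5, against 104, 116 and 106 CPM in sgHS2 (log2 −1.72, adjusted p = 1.86e-05). Neither gene's groups overlapped. DNAJB9 and DNAJC3, co-chaperones of HSPA5, had log2 differences of −1.59 and −0.79. The ER stress response element, read as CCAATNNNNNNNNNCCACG or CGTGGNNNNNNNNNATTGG, was found in 7 of 21 members with a promoter window (33.3%), against 0.0916% of all genes with one. Of these 7, HSPA5 and XBP1 were lower and the other 5 were not called, CALR and CANX among them. The list is made of known genes of this response, so the share with the element describes the list and not the comparison. The HSPA5 window lies at chr9:125241294-125241593 on the minus strand and is shown with the element in capitals.
HSPA5: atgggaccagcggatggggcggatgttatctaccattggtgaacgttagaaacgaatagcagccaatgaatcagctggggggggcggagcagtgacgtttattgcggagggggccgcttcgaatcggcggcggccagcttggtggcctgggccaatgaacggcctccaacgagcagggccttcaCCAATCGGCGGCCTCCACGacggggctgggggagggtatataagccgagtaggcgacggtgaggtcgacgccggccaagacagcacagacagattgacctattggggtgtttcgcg

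Cytosolic heat shock genes were lower for 7 of 16 members and higher for 1 (median log2 −0.35), or 43.8% lower, against 18.5% of all genes. The 1 higher call was lost without any 1 of the 6 libraries and with sgHS1-5 1 alone. DNAJB1, a co-chaperone of HSP70, was at 106, 87.5 and 105 CPM in sgHS1-5, against 172, 198 and 167 CPM in sgHS2 (log2 −0.84, adjusted p = 6.36e-05). HSPA1A, an inducible HSP70 that shares reads with its near-identical copy HSPA1B, had a log2 difference of −1.07, and BAG3, a co-chaperone, one of −0.79. All 3 were lower in both fits.

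Genes of DNA replication and the cell cycle were higher in sgHS1-5. Of 55 tested, 42 were higher and 2 lower, where 20.4% of all genes were higher, and 30 were higher in both fits, against 8.73% of all genes. The median log2 difference was 0.74, and 0.69 with sgHS1-5 1 alone. MCM4 and MCM3, subunits of the replicative helicase, showed this direction in every library. MCM4 had 344, 380 and 336 CPM in sgHS1-5, against 126, 107 and 119 CPM in sgHS2 (log2 1.59 ± 0.11, SE; adjusted p = 1.08e-06). MCM3 had 299, 361 and 295 CPM in sgHS1-5, against 141, 153 and 140 CPM in sgHS2 (log2 1.14, adjusted p = 4.08e-06). CDC25A, the phosphatase that starts S phase, was at 51.0, 55.9 and 45.8 CPM in sgHS1-5, against 19.9, 21.1 and 19.7 CPM in sgHS2 (log2 1.33, adjusted p = 1.16e-06). MCM4 averaged 201 CPM in sgHBG, 182 CPM in sgGal4 and 295 CPM in WT, all between the means of sgHS1-5 and sgHS2. MYC was at 294, 490 and 329 CPM in sgHS1-5, against 144, 161 and 148 CPM in sgHS2 (log2 1.30, adjusted p = 0.000152). It was highest in sgHS1-5 2, and with sgHS1-5 1 alone the log2 difference was 0.96.

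E2F factors bind promoters of many of these genes. The E2F letters TTTCCCGC or TTTGGCGC, with GCGGGAAA or GCGCCAAA on the other strand, were in the windows of 13 of 42 members with one (31%), against 2.75% of all genes, and 12 of the 13 were higher, PCNA, CDC6 and TYMS among them. Over the whole list 42 of 55 were higher. As E2F factors are known to bind many of these promoters, the share with the letters describes the list and not the comparison. The match in CDC25A, at chr3:48188368-48188667 on the minus strand, is in capitals. Matches of the 3 elements searched overlapped each other in 0 of 35116 windows.
CDC25A: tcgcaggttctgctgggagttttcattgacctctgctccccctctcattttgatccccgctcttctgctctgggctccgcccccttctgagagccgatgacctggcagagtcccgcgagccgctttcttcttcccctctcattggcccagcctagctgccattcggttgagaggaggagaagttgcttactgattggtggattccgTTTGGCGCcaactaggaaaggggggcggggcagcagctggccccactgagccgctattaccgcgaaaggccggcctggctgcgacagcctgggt

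Replication-dependent histones were higher for 8 of 19 members and lower for 1 (median log2 0.50, and 0.595 with sgHS1-5 1 alone). With all libraries this was 42.1% higher and 5.26% lower, against 20.4% and 18.5% of all genes. The 8 higher became 14 without sgGal4 1, and 5 without sgHS1-5 1, sgHS2 2 or sgHS2 3. The 8 include H1F0, a linker histone gene that is not replication-dependent. H1F0 was at 0.324, 24 and 5 CPM in sgHS1-5, against 0.0874, 0.322 and 0 CPM in sgHS2. It passed the filter on low counts only through sgHS1-5 2 and 3, so it could only be called higher. HIST1H2BJ had 28.5, 20.6 and 25.7 CPM in sgHS1-5, against 15.3, 12.9 and 12.9 CPM in sgHS2 (log2 0.86, adjusted p = 0.00053). Cytosolic ribosomal proteins had no member called in either direction by edgeR in either fit, and 5 lower and 0 higher at an unadjusted p under 0.05. Of the 55, 25 had all sgHS1-5 libraries below all sgHS2 libraries and 1 the reverse, against 26.5% and 27.1% of all genes, and the median log2 difference was −0.21. RPLP0, of the ribosome's acidic stalk, was at 4140, 4300 and 4270 CPM in sgHS1-5, against 5350, 6780 and 5270 CPM in sgHS2 (log2 −0.45, adjusted p = 0.0574). Without sgGal4 1, a library of neither group, 27 ribosomal protein genes were lower and 1 higher. With only the sgHS1-5 and sgHS2 libraries, 8 were lower and 1 higher, with no filter 2 were lower, and DESeq2 called 1 lower.

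**Figure D4:**
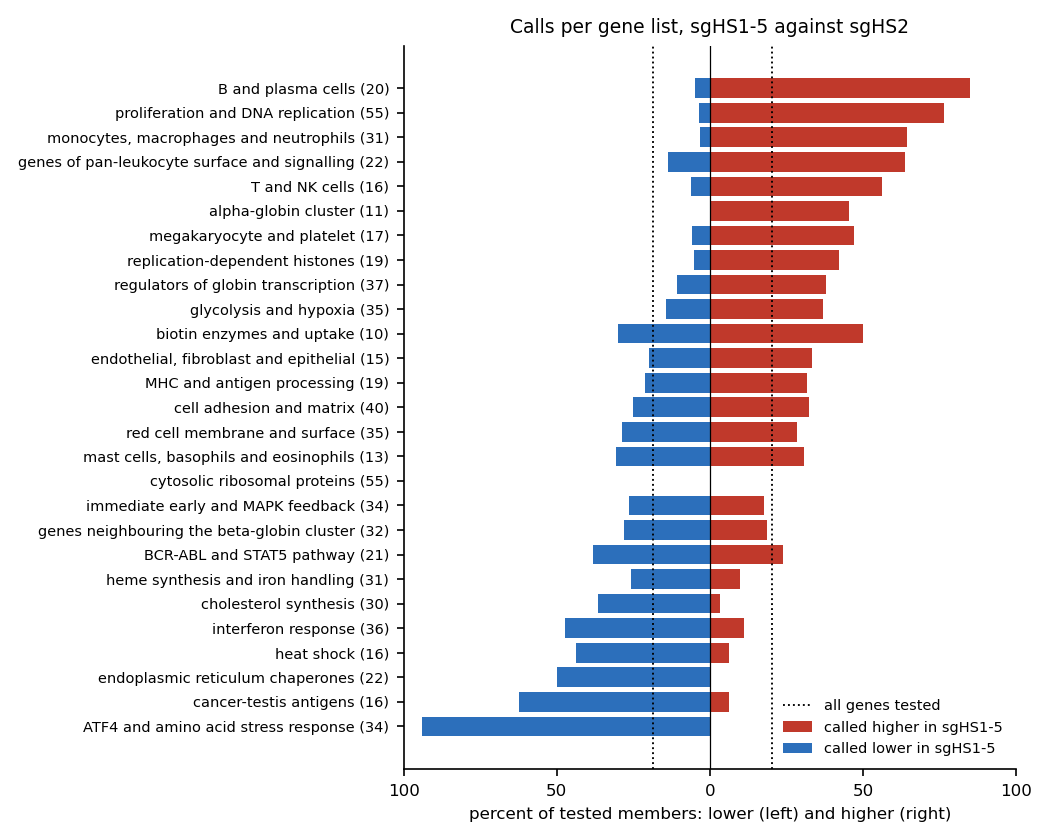
Percent of tested members (their number in brackets) called lower (blue, left) and higher (red, right) in sgHS1-5 for each gene list with at least 10 tested members; dotted lines give the 18.5% lower and 20.4% higher of all genes tested. The ATF4 list is lower for 94.1% of its members and replication genes are higher for 76.4%. B cell markers are higher for 85%, but 14 of the 20 tested had sgHS1-5 libraries more than 3-fold apart. Markers that passed the filter on low counts only through sgHS1-5 2 and 3 could only be called higher.

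Genes of glucose use and hypoxia were split. Of 35 tested, 13 were higher (37.1%) and 5 lower (14.3%), with a median log2 difference of 0.19, and 0.21 with sgHS1-5 1 alone. Over all genes 20.4% were higher and 18.5% lower with all libraries. HK2, which starts glycolysis, was at 103, 146 and 117 CPM in sgHS1-5, against 31.9, 24.2 and 32.8 CPM in sgHS2 (log2 2.04 ± 0.19, SE; adjusted p = 6.63e-06). With sgHS1-5 1 alone its log2 difference was 1.80. LDHA, which makes lactate, was at 1610, 1370 and 1510 CPM in sgHS1-5, against 838, 919 and 854 CPM in sgHS2 (log2 0.78, adjusted p = 3.28e-05). VEGFA, the vascular growth factor, and P4HA2, a collagen prolyl hydroxylase, were lower, with log2 differences of −0.98 and −1.15. In cholesterol and fatty acid synthesis, 11 of 30 members were lower and 1 higher (median log2 −0.26, and −0.32 with sgHS1-5 1 alone). The 11 lower members were 36.7% and the 1 higher member 3.33%, against 18.5% and 20.4% of all genes. SCD, the stearoyl-CoA desaturase, had 1030, 899 and 983 CPM in sgHS1-5, against 2030, 1740 and 1930 CPM in sgHS2 (log2 −0.97, adjusted p = 0.000103), and MSMO1, a sterol oxidase, a log2 difference of −1.18.

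The interferon list had 17 lower and 4 higher of 36 tested genes (median log2 −0.55, and −0.74 with sgHS1-5 1 alone). With all libraries 47.2% were lower and 11.1% higher, against 18.5% and 20.4% of all genes. GBP2, an interferon-induced GTPase, was at 27.2, 27.9 and 29.2 CPM in sgHS1-5, against 82.9, 90.0 and 78.9 CPM in sgHS2 (log2 −1.58, adjusted p = 1.68e-05). STAT2 and IRF1, factors of the interferon signal, had log2 differences of −0.97 and −0.79. GBP4 went the other way, at 26.6, 19.4 and 24.9 CPM in sgHS1-5, against 8.66, 7.40 and 8.93 CPM in sgHS2 (log2 1.5, adjusted p = 0.000161). Of 19 genes of antigen presentation, 6 were higher and 4 lower, 2 and 2 in both fits, and 9 had sgHS1-5 libraries that differed by more than 3-fold. These were 31.6% higher and 21.1% lower with all libraries, against 20.4% and 18.5% of all genes. The counts in both fits were near the shares of all genes in both fits. TAPBP, which loads peptides on MHC class I, was lower (log2 −0.74) and TAP2, a peptide transporter, higher (log2 0.82), both in both fits.

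In the list of red cell membrane and surface genes, 10 of 35 were higher and 10 lower (28.6% each, against 20.4% and 18.5% of all genes), with a median log2 difference of 0.02. The median was 0.18 with sgHS1-5 1 alone, and without sgHS1-5 3 the higher count was 6. DMTN (dematin), which binds actin, had a log2 difference of −1.21. ADD2, an adducin of the membrane skeleton, was at 98.0, 75.1 and 82.7 CPM in sgHS1-5, against 31.0, 31.4 and 32.6 CPM in sgHS2 (log2 1.43, adjusted p = 4.8e-06), and AQP1, a water channel, had a log2 difference of 1.47. These 3 were called in both fits. For heme and iron, 8 of 31 genes were lower (25.8%) and 3 higher (9.68%). The median log2 difference was −0.18, and −0.13 with sgHS1-5 1 alone. ALAS2, the erythroid enzyme that starts heme synthesis, had 82.3, 55.6 and 85.2 CPM in sgHS1-5, against 168, 186 and 165 CPM in sgHS2 (log2 −1.22, adjusted p = 0.000195), ALAD, the next enzyme, a log2 difference of −0.65, and STEAP3, an iron reductase, one of 1.07.

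Of 37 regulators of globin transcription, 14 were higher and 4 lower (median log2 0.27), and 4 were higher and 3 lower in both fits. With all libraries this was 37.8% higher and 10.8% lower, against 20.4% and 18.5% of all genes. The counts in both fits were near the shares of all genes in both fits. ZFPM1 (FOG1), the cofactor of GATA1, was at 46.6, 27.9 and 41.4 CPM in sgHS1-5, against 12.2, 12.8 and 11.3 CPM in sgHS2 (log2 1.67 ± 0.18, SE; adjusted p = 2.46e-05). DNMT1, the maintenance DNA methyltransferase, had 303, 341 and 297 CPM in sgHS1-5, against 150, 144 and 146 CPM in sgHS2 (log2 1.10, adjusted p = 7.24e-05). E2F2 was higher (log2 1.14) and NFE2L2 (NRF2), the factor of the antioxidant response, lower (log2 −0.55). Among megakaryocyte genes, 8 of 17 were higher and 1 lower (47.1% and 5.88%, against 20.4% and 18.5% of all genes). The median log2 difference was 0.61, and 0.55 with sgHS1-5 1 alone. The higher count was 5 without sgHS2 2, and 4 members had sgHS1-5 libraries more than 3-fold apart. GP6, the platelet collagen receptor, was at 10.4, 7.65 and 11.2 CPM in sgHS1-5, against 3.15, 1.61 and 2.67 CPM in sgHS2 (log2 1.96, adjusted p = 0.000126). RAB27B, of platelet granules, had a log2 difference of 1.13. FLI1, the megakaryocyte factor, was at 0.324, 39.3 and 8.11 CPM in sgHS1-5, against 0.0874, 0.215 and 0 CPM in sgHS2, and was not called with sgHS1-5 1 alone (adjusted p = 0.396).

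Adhesion and matrix genes included large differences in both directions, 13 higher (32.5%, against 20.4% of all genes) and 10 lower (25%, against 18.5%) of 40. The median log2 difference was 0.20, and −0.03 with sgHS1-5 1 alone. Without sgHS2 3 the higher count was 8, and 11 members had sgHS1-5 libraries more than 3-fold apart. ITGA4, the α4 integrin that binds VCAM1 and fibronectin, was at 103, 174 and 114 CPM in sgHS1-5, against 6.91, 5.47 and 9.67 CPM in sgHS2 (log2 4.14 ± 0.33, SE; adjusted p = 2.47e-06; 3.81 with sgHS1-5 1 alone). Its level varied widely over the other groups, from a mean of 0.567 CPM in WT to 54.3 CPM in sgHBG and 112 CPM in sgGal4. Within sgHS1-5, ITGA4 was highest in library 2, next in 3 and lowest in 1, as transcripts of other blood cells were. The source of its transcripts was not tested. CD44, another adhesion receptor with that order of libraries, was higher (log2 0.78, and 0.61 with sgHS1-5 1 alone). SPARC, a matrix protein, ICAM1 and the integrin chain ITGB1 were lower, with log2 differences of −1.82, −1.22 and −0.74. Cancer-testis antigens, germline genes expressed in tumours, were lower for 10 of 16 members and higher for 1 (median log2 −1.06, and −0.82 with sgHS1-5 1 alone). That was 62.5% lower and 6.25% higher with all libraries, against 18.5% and 20.4% of all genes. MAGEA4 was at 2.27, 2.46 and 2.70 CPM in sgHS1-5, against 16.2, 17.1 and 19.3 CPM in sgHS2 (log2 −2.81, adjusted p = 6.35e-06), and MAGEA1, MAGEC2 and MAGEA12 had log2 differences of −1.75, −1.06 and −0.98.

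BCR-ABL, the fusion kinase of K562, signals through STAT5, whose targets include feedback inhibitors. In this list, 8 of 21 genes were lower (38.1%, against 18.5% of all genes) and 5 higher (23.8%, against 20.4%). The higher count was 3 without sgHS1-5 3, sgHS2 1 or sgHS2 3. The median log2 difference was −0.06, and 0.03 with sgHS1-5 1 alone. SOCS3, an inhibitor of cytokine signals, had 8.91, 7.65 and 8.38 CPM in sgHS1-5, against 25.3, 29.9 and 24.7 CPM in sgHS2 (log2 −1.68, adjusted p = 1.44e-05), and SOCS2, the adaptor GAB2 and the kinase PIM1 had log2 differences of −0.92, −1.19 and −0.77. Of 34 immediate early and MAPK feedback genes, 6 were higher (17.6%) and 9 lower (26.5%), against 20.4% and 18.5% of all genes. Their median log2 difference was −0.05, and −0.20 with sgHS1-5 1 alone, and 7 members had sgHS1-5 libraries more than 3-fold apart. SPRY1, a feedback inhibitor, had a log2 difference of 1.82. Among the 10 genes of biotin use, 5 were higher (50%, against 20.4% of all genes) and 3 lower (30%, against 18.5%). SLC5A6, the biotin importer, was at 88.7, 82.5 and 91.7 CPM in sgHS1-5, against 46.1, 45.1 and 42.0 CPM in sgHS2 (log2 0.98, adjusted p = 5.6e-06), MCCC1, a biotin carboxylase subunit, had a log2 difference of 0.58, and HLCS, which attaches biotin, and ACACB were lower, with −0.78 and −1.42.

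Among genes called in both fits whose sgHS1-5 libraries lay within 2-fold of each other, 1077 were higher (7.65%) and 1079 lower (7.66%). TERT, the catalytic subunit of telomerase, led the higher ones. It had 9.23, 8.33 and 9.19 CPM in sgHS1-5, or 186 reads in all, against 0.0874, 0 and 0.0921 CPM in sgHS2, or 2 reads. The groups were far apart, a ratio of 141 with a 95% exact counting interval of 38.4 to 1170 (adjusted p = 5.76e-07). TERT averaged 1.93 CPM in sgHBG, 2.35 CPM in sgGal4 and 0.706 CPM in WT, so the sgHS1-5 mean was the highest and the sgHS2 mean the lowest of the 5 groups. KIF1A, a neuronal kinesin, had 58.6, 36.2 and 57.7 CPM in sgHS1-5, against 4.90, 3.0 and 3.41 CPM in sgHS2 (log2 3.74 ± 0.25, SE; adjusted p = 6.42e-07). CERKL, a ceramide kinase-like protein, had 18.3, 28.8 and 22.2 CPM in sgHS1-5, against 0.787, 1.18 and 1.47 CPM in sgHS2 (log2 4.33 ± 0.30, SE; adjusted p = 8.16e-07). With sgHS1-5 1 alone the log2 difference of CERKL was 3.99. KIF1A averaged 12 CPM in sgHBG, 53.2 CPM in sgGal4 and 0.375 CPM in WT, and CERKL 6.21, 18.3 and 0.0455 CPM. For both genes the sgGal4 libraries overlapped the sgHS1-5 libraries. The rest of the 12 largest differences, besides HBZ and ITGA4, were at 1.97 to 3.98 CPM on average in sgHS1-5: VCAN, a proteoglycan, TRHDE and the antisense RNA TRHDE-AS1, SLITRK5, HSD11B2, SLC4A11 and SPDYE6. The kit does not mark strand, so reads of TRHDE and TRHDE-AS1 cannot be told apart where they overlap, and SPDYE6 belongs to a family of near-identical copies.

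Among the lower genes of this kind, besides INHBE, NUPR1 and SLC6A9, IL20RB, a receptor chain for interleukins of the IL-10 family, had 3.72, 2.73 and 4.19 CPM in sgHS1-5, against 58.7, 71.4 and 61.2 CPM in sgHS2 (log2 −4.16 ± 0.18, SE; adjusted p = 6.64e-08). SPINK1, a trypsin inhibitor, had 1.46, 2.18 and 1.89 CPM in sgHS1-5, against 32.1, 45.2 and 34.5 CPM in sgHS2 (log2 −4.31, adjusted p = 2.27e-05). In both genes every sgHS1-5 library was more than 10-fold below every sgHS2 library. THSD4, HSD11B1, CPZ, TRIML2, SERPINC1 and PASD1 had log2 differences of −5.27, −3.95, −3.63, −3.54, −3.31 and −3.0. THSD4 had only 8 reads in sgHS1-5, against 489 in sgHS2. CELA2A, a pancreatic elastase with a near-identical copy, had 3 reads in sgHS1-5 and 121 in sgHS2, a ratio of 0.0375 after scaling (95% counting interval 0.00763 to 0.112). With no limit on the spread within sgHS1-5, the lowest differences also took in SLIT3, a guidance ligand with 1 read in sgHS1-5 and 100 in sgHS2. KLHDC7B (16 and 941 reads, log2 −5.27), SPRR2D (6 and 321 reads, −5.09) and the antisense RNA LY86-AS1 (5 and 264 reads, −5.04) were others. So were LIMCH1 (2 and 80 reads), MT4 (9 and 307 reads, −4.48) and PRSS23 (5 and 155 reads, −4.29). With so few reads in sgHS1-5, the size of these differences is uncertain.

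With no limit on that spread, the highest differences included markers of other blood cells and were led by MPO, myeloperoxidase of neutrophil granules. MPO was at 19.4, 1410 and 264 CPM in sgHS1-5, against 0.175, 0.107 and 0.0921 CPM in sgHS2 (log2 11.99 ± 1.63, SE). MS4A1 (CD20), a B cell marker, was at 2.43, 38.9 and 9.60 CPM in sgHS1-5 and had 0 reads in sgHS2, at least 187-fold higher against a floor of 3 reads over the group. MPO averaged 0.0928 CPM in sgHBG, 0.219 CPM in sgGal4 and 0.187 CPM in WT, and MS4A1 0 CPM in each. MPO and MS4A1 thus passed the filter on low counts only through the sgHS1-5 libraries and could only be called higher. Both were highest in sgHS1-5 2, next in sgHS1-5 3 and lowest, though above sgHS2, in sgHS1-5 1. KBTBD11, TCL1A, GPX1, ELANE, PLD4, IL1RN, CXCR4, IRF8 and LSP1, also among the 12 highest, had that order of libraries too. GPX1, KBTBD11 and IL1RN were in none of the marker lists, and the source of their transcripts was not tested. With limma voom, MPO, GPX1, ELANE, CXCR4 and LSP1 were no longer called (adjusted p from 0.0535 to 0.0895), nor was MS4A1 with DESeq2 (adjusted p = 0.0689). Of the genes called with all libraries and either not called or not tested with sgHS1-5 1 alone, the 5 highest were FAM20C, CTSG, IRF4, SERPINB2 and CYP1B1, each with 0 reads in sgHS2 and too few for the test with sgHS1-5 1 alone. These 5 passed the filter on low counts only through sgHS1-5 2 and 3, so they could only be called higher. CTSG, a neutrophil protease, had 1.94, 46.0 and 7.03 CPM in sgHS1-5. The 5 lowest, ANKFN1, PAPPA2, OLFML2B, ATP8A2 and TSPEAR-AS1, were all at a mean under 0.5 CPM in sgHS1-5, and PAPPA2 had the highest sgHS2 mean of them, 4.23 CPM.

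Marker lists showed the same order of libraries. The 40 markers of monocytes, macrophages and neutrophils summed to 437, 3240 and 937 CPM in sgHS1-5, against 386, 441 and 382 CPM in sgHS2. The 24 markers of B and plasma cells summed to 60.9, 498 and 145 CPM in sgHS1-5, against 50, 45.2 and 48.3 CPM in sgHS2, and the 30 of T and NK cells to 87.5, 216 and 115 CPM in sgHS1-5, against 57.5, 62.7 and 56.8 CPM in sgHS2. The 21 mast cell, basophil and eosinophil markers summed to 809, 598 and 739 CPM in sgHS1-5, against 798, 704 and 778 CPM in sgHS2, and were lowest in replicate 2 of each group. Across 18 markers of blood cells and of the 9p21 region at 10 CPM or more in sgHS1-5 2 and at a mean under 0.5 CPM in sgHS2, sgHS1-5 3 held 14.4% to 37.6% of the sgHS1-5 2 level (median 22%) and sgHS1-5 1 held 0.927% to 6.24% (median 4.33%). Library sgHS1-5 1 was not free of them.

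Genes of the 9p21 region, which K562 cells are known to have lost by deletion, moved with these markers. MTAP, a purine salvage enzyme, was at 0.972, 17.6 and 3.38 CPM in sgHS1-5, against 0.175, 0 and 0.0921 CPM in sgHS2. KLHL9, CDKN2A and CDKN2B, the last pair encoding cell cycle inhibitors, had 0 reads in sgHS2 and were at 10.8, 5.6 and 4.23 CPM in sgHS1-5 2. The list of 9 summed to 2.59, 40 and 10 CPM in sgHS1-5, against 0.699, 0.322 and 0.737 CPM in sgHS2. Only 4 of the 9 passed the filter on low counts, through their reads in sgHS1-5 2 and 3, so their calls are not counted here. With sgHS1-5 1 alone none passed it.

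**Figure D5:**
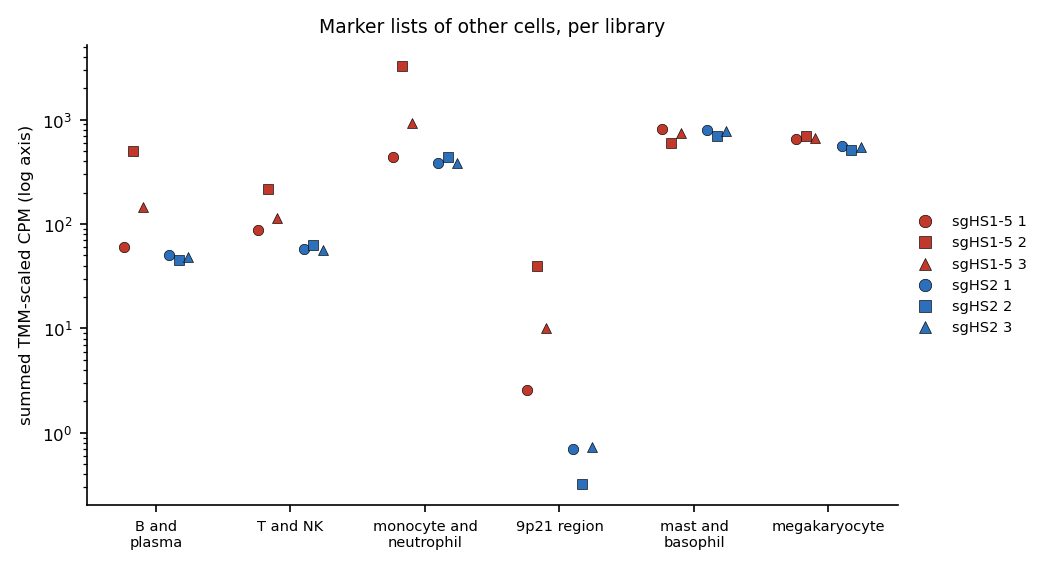
Summed TMM-scaled CPM (log axis) of marker lists in each sgHS1-5 library (red, left of each pair) and sgHS2 library (blue); shapes give the replicate number. B cell, T cell, myeloid and 9p21 sums are highest in sgHS1-5 2 and next in sgHS1-5 3, while mast cell and megakaryocyte sums lie close together.

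These values bear on the counts of the blood cell lists. B and plasma cell markers were higher for 17 of 20 tested and lower for 1 (median log2 4.99, or 4.52 with genes at 0 reads set to their bound). With sgHS1-5 1 alone the median was 1.05 over the 15 that could be tested. Myeloid markers were higher for 20 of 31 and lower for 1 (median log2 2.69, and 0.475 over the 25 tested with sgHS1-5 1 alone). T and NK markers were higher for 9 of 16 and lower for 1 (median log2 0.865, and 0.394 over the 14 tested with sgHS1-5 1 alone). Pan-leukocyte genes were higher for 14 of 22 and lower for 3 (median log2 0.63, and 0.28 with sgHS1-5 1 alone). Mast cell, basophil and eosinophil genes were higher for 4 of 13 and lower for 4 (30.8% each), and the lower count was 2 without sgHS1-5 2, sgHS2 1 or sgHS2 3. Endothelial, fibroblast and epithelial genes were higher for 5 of 15 (33.3%) and lower for 3 (20%). Over all genes, 20.4% were higher and 18.5% lower. Markers that passed the filter on low counts only through sgHS1-5 2 and 3 had to be higher, so these counts describe the libraries. A few markers had levels within 2-fold of each other in the 3 sgHS1-5 libraries. MS4A6A, a membrane protein of macrophages, was at 26.4, 36.2 and 28.9 CPM in sgHS1-5, against 8.31, 7.51 and 7.74 CPM in sgHS2 (log2 1.96, adjusted p = 1.83e-06), and LEF1, a WNT factor also active outside T cells, at 24.9, 34.4 and 28.8 CPM in sgHS1-5, against 12.3, 14.9 and 13.2 CPM in sgHS2 (log2 1.13, adjusted p = 7.12e-05). Both genes were highest in sgHS1-5 2 and next in sgHS1-5 3, the order of the other blood cell transcripts. Their libraries lay within 2-fold, where sgHS1-5 1 held at most 6.24% of the sgHS1-5 2 level for the 18 markers above. MS4A6A averaged 38.9, 0.784 and 1.91 CPM in sgHBG, sgGal4 and WT, and LEF1 23.5, 20.3 and 29.1 CPM. The source of their transcripts was not tested. CD33, a myeloid lectin, was lower, at 30.6, 35.9 and 33.0 CPM in sgHS1-5, against 65.1, 73.2 and 66.2 CPM in sgHS2 (log2 −1.04, adjusted p = 5.16e-06). HDC, the histamine-forming enzyme of mast cells and basophils, was at 253, 177 and 233 CPM in sgHS1-5, against 84.6, 94.1 and 92.8 CPM in sgHS2 (log2 1.29, adjusted p = 3.82e-05). The part of these other transcripts in the gene list counts was not tested.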

How the data were processed

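RNA-seq was made from total RNA with a TruSeq RNA v2 kit, per the labels' protocols. The authors deposited a table of read counts per gene and a table of RPKM values for all 14 libraries. TopHat, Cufflinks, DESeq and hg19 are named in the submitters' processing notes with no versions, and how reads were assigned to genes or strands is not given in the sources used here. The deposited counts were tested with edgeR 4.0.16 (R 4.3.3): TMM scaling, filterByExpr (minimum count 10, minimum total 15), 1 mean per group over all 14 libraries, the quasi-likelihood test and Benjamini-Hochberg adjustment over all genes tested, with a call at an adjusted p under 0.05. The RPKM values as deposited were used for levels between genes and with limma 3.58.1 as an alternative; DESeq2 1.42.0, other scalings, other filters and left-out libraries were the rest. Intervals and floors cover counting error only.

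Members and lists were chosen with earlier results of these data known. Named genes were the 12 highest and 12 lowest log2 differences among genes called in both fits without overlap at a mean of at least 1 CPM, the β-globin cluster, up to 4 members of each list with the lowest p, the 5 highest and 5 lowest called only with all libraries, and up to 4 markers of each other cell type. The genes whose sgHS1-5 libraries lie within 2-fold, all ATF4 list members and the α-globin cluster were added after values were seen, as were members named only for a promoter match. Replicate numbers did not pair the libraries. Some genes that the rule names are not reported here.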

Additional observations from a re-analysis of the deposited data

How the results depend on the processing

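Scaling by RLE, other filters, DESeq2, limma voom, the RPKM fits, a fit of only these 6 libraries and leaving out sgGal4 1 kept the count of called genes between 4783 and 7831, against 5608 as reported. With sgHS1-5 1 alone the counts were 2675 in all, 1316 higher and 1359 lower, of which 2443 were shared with the reported calls. With sgHS2 2 left out as well, they were 2315, 1118 and 1197. A 2-fold minimum left 2312. Leaving out 1 library gave 4293 to 5114 genes, 2198 to 2732 higher and 2095 to 2382 lower.

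The named genes whose value changed sign were all not called as reported. HBG2 was at log2 0.045 with sgHS1-5 1 alone and 0.193 with sgHS2 2 also left out, and HBG1 at 0.121 and 0.311. VLDLR was at −2.922 and −3.054 in those fits, −0.412 with voom and −0.244 with RPKM plus 0.1. ITFG3 was at 0.008 with both changes and CCR3 at 0.018 with unfiltered RPKM plus 1. Leaving out 1 library gave −0.191 to 0.108 for HBG1, −0.137 to 0.294 for HBBP1 and −1.133 to 0.98 for VLDLR. The cause was not tested.

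Same-numbered libraries of the 2 groups did not deviate together (correlations of −0.0108, −0.0114 and −0.0272). With the replicate number as a block, 5215 genes were called, 2706 higher and 2509 lower, and among named genes LUC7L (adjusted p = 0.059) and IL7R (adjusted p = 0.0588) were no longer called by edgeR. The shallower sgHS1-5 libraries limit what can be detected for genes near 1 CPM, and 297 genes called higher had too few reads for the test with sgHS1-5 1 alone.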

Other observations

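Genes of the X chromosome were lower in sgHS1-5 more often than genes of the other chromosomes. Of 493 tested, 162 were lower (32.9%) and 61 higher (12.4%), with a median log2 difference of −0.26, and −0.34 with sgHS1-5 1 alone. On the other chromosomes 9.64% to 24.8% of genes were lower. The cancer-testis antigens, many of them on this chromosome, did not make up this count: without them 31.8% of 478 genes were lower. In both fits 70 were lower (14.2%) and 24 higher (4.87%). Chromosome 13 had the smallest share of lower genes, with 27.3% of 249 genes higher and 9.64% lower. In both fits 8.84% of its genes were higher, close to the 8.73% of all genes, and 4.02% lower, and its median log2 difference was 0.26 with all libraries and 0.08 with sgHS1-5 1 alone. The copy number of these chromosomes in either population was not measured here.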
